A study of Schmidtea mediterranea with 4 samples.

Results

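The sexual strain of the planarian *S. mediterranea* is a hermaphrodite flatworm, and 136 of its genes were at least 2 times as high in posterior as in anterior tissue by the sums of single-cell RNA sequencing (scRNA-seq) libraries. To choose them, the UMIs (unique molecular identifiers, 1 for each captured transcript molecule) of a gene were summed over all cells of a library and scaled to counts per 1000000 UMIs (CPM). A gene was a member if it had at least 100 UMIs over the 4 libraries and if its lower posterior CPM was at least 2 times its higher anterior CPM. The 136 members were 0.789% of the 17231 genes with at least 100 UMIs, out of a list of 22192 genes. The contrast of the regions chose the members, so the levels of the members by region are a description and carry no test.

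The study sequenced 4 suspensions, 2 of anterior tissue (anterior 1 and 2) and 2 of posterior tissue (posterior 1 and 2), each cut from 15 to 20 mature animals of the sexual strain. The animals were kept at 18 °C, starved for 1 week and given no treatment, and all 4 suspensions were dissociated and then sorted by a DNA dye and a dye that enters dead cells. The labels name the cells as coming from reproductive organs and do not say whether the libraries of a region came from separate sets of animals, so the spread between them may be technical. *nrps* and *LamA*, markers of somatic gonadal and support cells, and *klf4l*, a marker of early germ cells, had UMIs in all 4 libraries and were no members.

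The libraries held 6721, 10389, 12026 and 19080 cells and between 11513838 and 72094246 UMIs, in the order anterior 1, anterior 2, posterior 1, posterior 2, which is kept below wherever 4 values follow each other. Posterior cells were deeper, with medians of 3297.5 and 2394.5 UMIs against 1208 and 1218 in the anterior cells. Shares of cells with a UMI were therefore compared after each cell was thinned to 1000 UMIs. Libraries shared between 16 and 53 cell barcodes per pair, which touched 455 cells (0.944%).

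In a planarian the brain and the ovaries lie in the head region, the pharynx in the middle of the body, and the copulatory organs behind the pharynx, whereas testes and yolk glands extend along both sides. Muscle cells of planarians also express genes in bands along the head-to-tail axis, through which position is read during regeneration. A gene can thus be higher in posterior tissue because cells of one kind are more frequent there, or because cells of the same kind hold more of its transcripts, and single-cell counts separate these 2 measurements. The files pair no gene number with a name, so members are given by their SMESG numbers, and what each encodes is not given here.

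Members were a small part of the RNA. They held 3361, 6424, 80181 and 137439 UMIs, or 0.0292%, 0.0334%, 0.145% and 0.191% of all UMIs of a library. The members ranged from 101 to 21564 UMIs, with a median of 437.5, and the 5 with most UMIs held 38.2% of all member UMIs. The lower posterior value exceeded the higher anterior value by a median of 3.52 times and by at most 42.6 times in the 125 members that had an anterior UMI. The remaining 11 had none, and with 3 UMIs set as the limit of a count of 0 in an anterior library, the lower posterior value of these 11 was at least 1.18 to 13.5 times that limit. SMESG000013992.1 had the largest of these bounds, with 8.35 and 3.52 CPM in the posterior libraries. Counts of 0 and the limits set for them cover counting error only.

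The threshold itself did not mark a gap in the values. Just inside it, SMESG000035926.1 measured 1.22, 0.989, 2.45 and 3.72 CPM, a ratio of 2.02, and SMESG000077082.1 had the same ratio. SMESG000051573.1 followed at 2.03. Just outside it, SMESG000026385.1 and SMESG000065254.1 had ratios of 1.99, and SMESG000004026.1 had 1.97.

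Among all genes with at least 100 UMIs, 12.3% had libraries that did not overlap between regions and were higher in posterior tissue. By the quasi-likelihood test of edgeR (adjusted *P* under 0.05, Benjamini-Hochberg), 8 of 18716 genes tested were called higher in posterior libraries (0.0427%) and 23 lower, and the 8 genes called higher were members. Nothing is read from this about the members, since the rule used the same contrast. The count rested on single libraries: it was 0 without anterior 1 or without anterior 2 (807 and 1817 genes at an unadjusted *P* under 0.05, in either direction), 176 without posterior 1 and 94 without posterior 2, and DESeq2 called 127. The posterior libraries also differed from each other, by more than 2 times for 49 members.

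The members with most UMIs were detected in many posterior cells. SMESG000022668.1 measured 5.12, 5.36, 126 and 154 CPM, and 0.29%, 0.571%, 11.5% and 12.3% of cells thinned to 1000 UMIs held it. Both posterior libraries were far above both anterior libraries, and within each region the libraries were close. SMESG000023227.1, the member with most UMIs, measured 36.9, 51.5, 123 and 185 CPM, and SMESG000008973.1 measured 41.9, 57.5, 121 and 142 CPM. For these last 2 the anterior level was already substantial and the ratio close to the threshold, at 2.40 and 2.11. SMESG000044469.1 (20.1, 24.1, 69.5 and 138 CPM) and SMESG000005049.1 (7.99, 12.2, 50.1 and 152 CPM) were higher in posterior 2 than in posterior 1. The plot of CPM by library shows these 5 together with the other members named by rule.

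**Figure D1:**
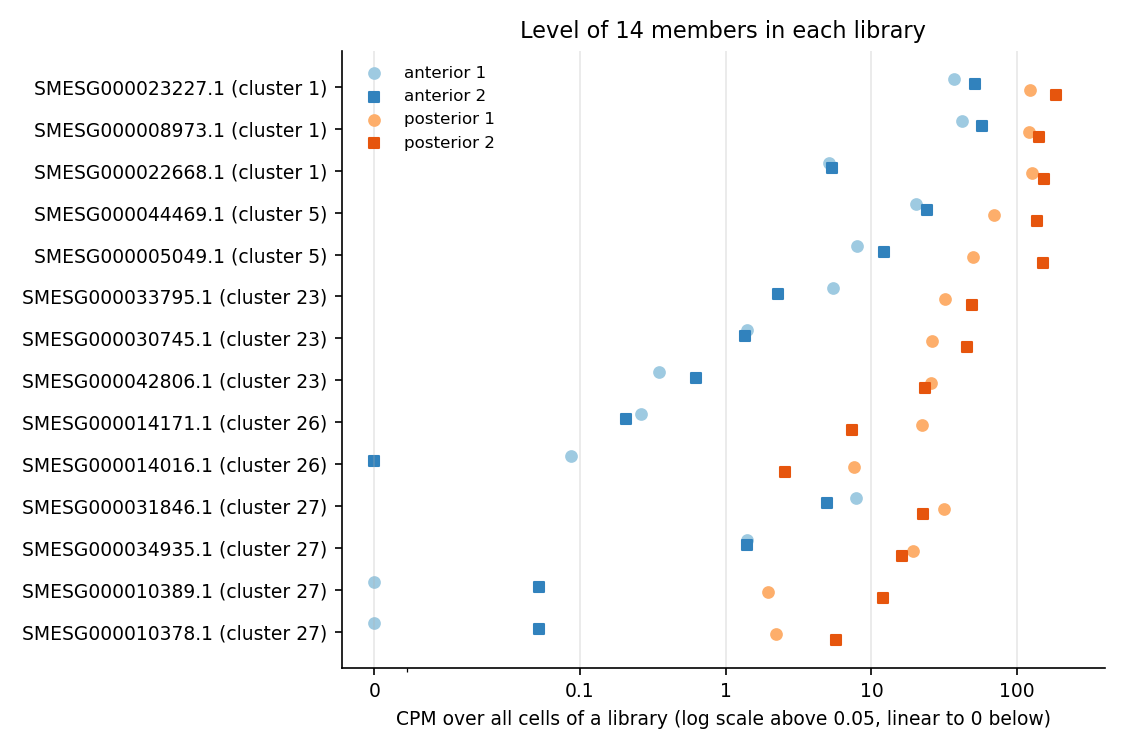
CPM over all cells of a library for 14 members, named with their carrying cluster: blue points are the anterior libraries, orange points the posterior libraries, and the axis is logarithmic above 0.05 CPM. SMESG000022668.1 moves from 5.12 and 5.36 to 126 and 154 CPM, while SMESG000010378.1 and SMESG000010389.1 have at most 1 UMI in an anterior library.

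The largest ratios belonged to rarer genes. SMESG000010378.1 had 0 and 1 UMIs in the anterior libraries and 123 and 410 in the posterior libraries, a ratio of 42.6, and SMESG000010389.1, next to it in the deposited gene list, had 0, 1, 109 and 870 UMIs and a ratio of 37.8. With 1 anterior UMI these ratios are imprecise, and their 95% counting intervals (exact binomial, on the UMIs of the lower posterior and the higher anterior library) ran from 7.51 to 1697 for SMESG000010378.1 and from 6.64 to 1505 for SMESG000010389.1. SMESG000042806.1 had 4, 12, 1421 and 1684 UMIs (0.347, 0.624, 25.6 and 23.4 CPM) and a ratio of 37.4, with both posterior libraries close to each other. SMESG000014016.1 (1, 0, 423 and 185 UMIs) and SMESG000014171.1 (3, 4, 1242 and 527 UMIs) reached ratios of 29.5 (5.24 to 1173) and 28.1 (9.55 to 136.5), and both were higher in posterior 1 than in posterior 2.

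To find the cells behind the members, all 48216 cells were clustered on 3000 variable genes that included neither the members nor *nrps*, *LamA*, *klf4l* and *nrps* (gut), which gave 52 clusters. The cluster with most posterior UMIs of a member is called its carrying cluster. Large or deep clusters can lead in UMIs without leading in CPM. Among clusters with at least 20 thinned cells, SMESG000022668.1 and SMESG000044469.1 had their highest posterior CPM in their carrying cluster. SMESG000005049.1, carried by cluster 5 (267 and 789 posterior CPM), was highest in cluster 15 (1162 and 935 CPM). SMESG000008973.1 of cluster 1 was highest in cluster 5, and SMESG000023227.1 of cluster 1 in clusters 47 (posterior 1) and 29 (posterior 2). In cluster 29, SMESG000023227.1 measured 805 CPM in posterior 2 and 991 CPM in anterior 2. Of the 50 clusters with at least 20 cells in each region, 49 had a higher posterior CPM of it. Clusters are given by number, because fewer than 3 markers per cell type could be matched. Carrying clusters were 20 of the 52. Cluster 23 carried 27 members, cluster 27 carried 20, cluster 1 carried 15, cluster 3 carried 14, cluster 39 carried 12, cluster 16 carried 9, and clusters 5 and 26 carried 7 each. The other 12 clusters carried between 1 and 4.

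Members ranged from concentrated in one cluster to spread over many. The carrying cluster held a median of 49.1% of the posterior UMIs of a member (range 13.2% to 90.5%), and 66 members had at least 50% there. The effective number of clusters (the inverse of the summed squared shares) had a median of 3.53 and ranged from 1.22 to 16.5. The posterior libraries, taken singly, placed 102 of the 136 members in the same leading cluster. Of the 81 members with at least 10 anterior UMIs, 31 had the same leading cluster in the anterior libraries, and 71 of the 136 had no anterior UMI in their carrying cluster.

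Cluster 23 was a group of cells found almost only in posterior suspensions. It held 9, 8, 301 and 288 cells, or 0.105% ± 0.040 of anterior and 2.01% ± 0.70 of posterior cells (mean ± SD, *n* = 2 libraries each), a 19.0-fold difference. The 2 regions did not overlap, but an exact permutation test of 2 against 2 libraries cannot go below *P* = 0.33, the value obtained (two-sided). The 27 members it carried had 4587 and 7859 UMIs in its posterior cells, or 4581 and 9653 CPM in sum, and 2 and 2 UMIs in its 17 anterior cells, or 219 and 194 CPM. Of the 20 non-member genes that led the cluster, 8 had any UMI in its anterior cells. These cells held 19473 UMIs, so that a gene at 0 in them, member or not, could have been at up to 154 CPM. Whether they are like the posterior cells of the cluster was not tested. The cluster held 46.7% and 43.6% of the posterior UMIs of the 27 members.

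Within cluster 23 the members with most posterior UMIs were SMESG000033795.1 and SMESG000030745.1. SMESG000033795.1 had 1158 and 1378 UMIs in the posterior cells of the cluster (1157 and 1693 CPM) and 0 in its anterior cells, and over all cells of a library it measured 5.47, 2.29, 32.1 and 49.4 CPM. One cell of posterior 1 alone held 831 UMIs of it, 15.6% of its posterior total, and 24 cells held 50%. SMESG000030745.1 measured 1.39, 1.35, 26.3 and 45.1 CPM over all cells and 772 and 2115 CPM in the posterior cells of the cluster. All other cells summed to 1.39, 1.35, 12.6 and 21.4 CPM, a level in which the part of free RNA was not tested.

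Both genes were also found in cluster 39, which led in the anterior libraries. SMESG000033795.1 measured 2295, 844, 1073 and 2418 CPM in cluster 39, so that the regions overlapped there, and SMESG000030745.1 measured 292, 523, 326 and 740 CPM, again with overlap. The anterior values rest on 55 and 21 UMIs of SMESG000033795.1 and on 7 and 13 UMIs of SMESG000030745.1. A single cell of anterior 1 held 37 of the 55 UMIs, and whether the regions overlap for SMESG000033795.1 without that cell was not tested. In thinned posterior cells, SMESG000033795.1 was in 18.5% and 42.1% of cluster 39 against 9.52% and 20.3% of cluster 23, and SMESG000030745.1 in 21.0% and 37.4% against 18.3% and 26.3%. SMESG000033795.1 and SMESG000000553.1 of cluster 39 were together in 65 thinned posterior cells where 3.48 were expected. SMESG000042806.1 was spread more evenly, with 660 and 888 CPM in the posterior cells of cluster 23, 50% of its posterior UMIs in 113 cells, and 0.347, 0.624, 13.95 and 13.5 CPM in all other clusters together.

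Cluster 27 was also more frequent in the posterior suspensions, with 27, 18, 178 and 243 cells, or 0.287% ± 0.162 against 1.38% ± 0.15 of cells (4.79-fold, exact permutation *P* = 0.33, *n* = 2 libraries each). Its 45 anterior cells held 63085 UMIs. Of the 20 leading non-member genes, 14 had a UMI in them and 12 were at 50% or more of the posterior level. The median over these 20 genes was 267% of the posterior level, so the anterior cells differed from the posterior cells in these genes too. Of the 20 members of the cluster, 17 had no UMI in its anterior cells. The 20 together had 0 and 4 UMIs there against 2328 and 6508 in the posterior cells. SMESG000031846.1 measured 781 and 852 CPM in the posterior cells of cluster 27, and SMESG000034935.1 measured 750 and 938 CPM. Both had 0 UMIs in its anterior cells, where 3 UMIs over both libraries would give 47.6 CPM, and both posterior libraries were above that limit. The anterior cells also differed in *LamA*, at 352 and 173 CPM against 38.1 and 48.9 CPM in the posterior cells, and the part of this difference in the result was not tested. In all other cells SMESG000031846.1 measured 7.84, 4.95, 20.1 and 12.1 CPM.

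Several members of cluster 27 rested on very few cells. SMESG000010389.1 had 34.9% of its posterior UMIs in a single cell with 342 UMIs, and 2 cells held 50% of them. SMESG000010378.1 had 50% in 7 cells. For both, the leading cluster was 27 in posterior 2 and cluster 3 in posterior 1. Over all 136 members, between 1 and 2295 cells (median 33) held 50% of the posterior UMIs, and for 35 members 10 cells or fewer did. A single cell held over 10% of the posterior UMIs of 50 members, and at most 77.4%. With the highest cell of each library left out for each gene, 131 of the 136 still met the ratio of 2. The plot of cells holding 50% of the UMIs sets these members beside those of clusters 1 and 5.

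**Figure D2:**
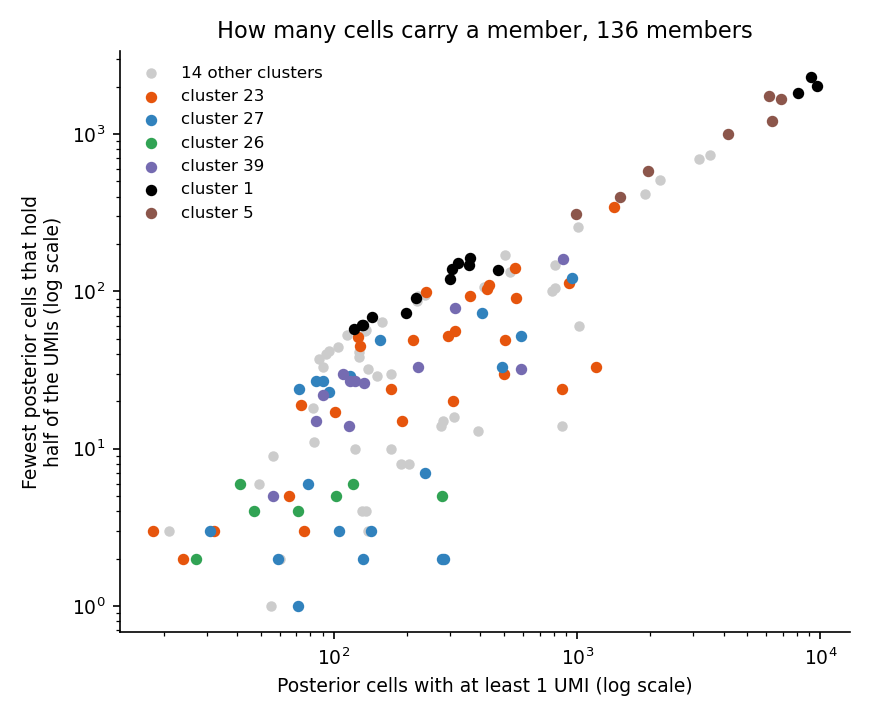
Each point is 1 of the 136 members: the number of posterior cells with at least 1 UMI (horizontal, log scale) against the fewest posterior cells that together hold 50% of its posterior UMIs (vertical, log scale), coloured by carrying cluster. Members of cluster 26 lie low, with 2 to 6 cells, and SMESG000008973.1 of cluster 1 lies at the top with 2295.

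Cluster 26 had a lower share of posterior cells, while its members were higher in CPM over all its cells, of which few held them. Its genes were taken up here after their values were seen, apart from SMESG000014016.1 and SMESG000014171.1. The cluster held 123, 145, 93 and 154 cells, so its share of cells was lower in posterior tissue (0.790% ± 0.024 against 1.61% ± 0.31, *n* = 2 libraries each, exact permutation *P* = 0.33). *LamA* was detected in it at 385, 448, 437 and 514 CPM, similar in the 4 libraries, and 17 of its 20 leading non-member genes were kept at 50% or more of the posterior level. The 7 members it carried had no UMI among the 353339 anterior UMIs of the cluster, a limit of 8.49 CPM for each, and 2591 and 921 UMIs in its posterior cells. SMESG000014171.1 measured 0, 0, 4549 and 851 CPM in the cluster, SMESG000013992.1 measured 0, 0, 1706 and 440 CPM, and SMESG000048414.1 measured 0, 0, 1201 and 311 CPM.

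These 7 members were confined to a few of the cells of cluster 26. At least 1 of them was seen in 11 of 93 and 13 of 154 posterior cells, and 10 and 11 of these cells held 3 or more of the 7, up to all 7. Among all other posterior cells, 2 of posterior 1 and 7 of posterior 2 held 3 or more. In posterior 1 the 5 highest cells had 76.6% of the UMIs of these members. No UMI of these members was seen in the 268 anterior cells of the cluster, which were shallower, at medians of 1142 and 817 UMIs against 2133 and 1816. The part of depth in this difference was not tested. SMESG000014016.1 and SMESG000014017.1 are neighbours in the deposited gene list, as are SMESG000048414.1 and SMESG000048415.1 and also SMESG000013980.1 and SMESG000014171.1.

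In cluster 39, by contrast, cell number differed and the level in the cells much less. The cluster held 16, 14, 89 and 119 cells (0.186% ± 0.073 against 0.682% ± 0.082 of cells, 3.66-fold, *n* = 2 libraries each, exact permutation *P* = 0.33), and its 12 members summed to 5384, 6432, 5904 and 9332 CPM in its cells. SMESG000000553.1, named after its values were seen, measured 7.64, 5.52, 25.7 and 47.7 CPM over all cells and 3297, 3336, 3502 and 5543 CPM within the cluster. Within the cluster, anterior 1, anterior 2 and posterior 1 were close and posterior 2 was higher. Of the 12 members, 9 were kept at 50% or more of the posterior level in the anterior cells of the cluster, and each of the 12 had an anterior UMI there. The share of cells with at least 1 of these members, at equal depth, was 75%, 77.8%, 77.8% and 86.9% in the cluster against 0.82%, 0.75%, 2.06% and 2.52% in all other cells, with 8, 9, 81 and 107 cells of the cluster deep enough to count.

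Cluster 16 held 33, 45, 278 and 577 cells (0.462% ± 0.041 against 2.67% ± 0.50 of cells, 5.77-fold, *n* = 2 libraries each, exact permutation *P* = 0.33), and its 9 members did not behave alike. SMESG000066854.1, named after its values were seen, measured 988, 929, 625 and 750 CPM within the cluster, so that its level there was no higher in posterior cells. SMESG000020242.1 measured 603, 500.5, 634 and 522 CPM within the cluster, with overlap of the regions, while in all other cells it measured 16.5, 22.7, 67.3 and 44.8 CPM. SMESG000002896.1 measured 0, 0, 509 and 383 CPM within the cluster and 12.2, 10.2, 30.1 and 21.1 CPM elsewhere. The share of cells in the cluster was thus the larger term for SMESG000066854.1, and the level in the cells for SMESG000002896.1.

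**Figure D3:**
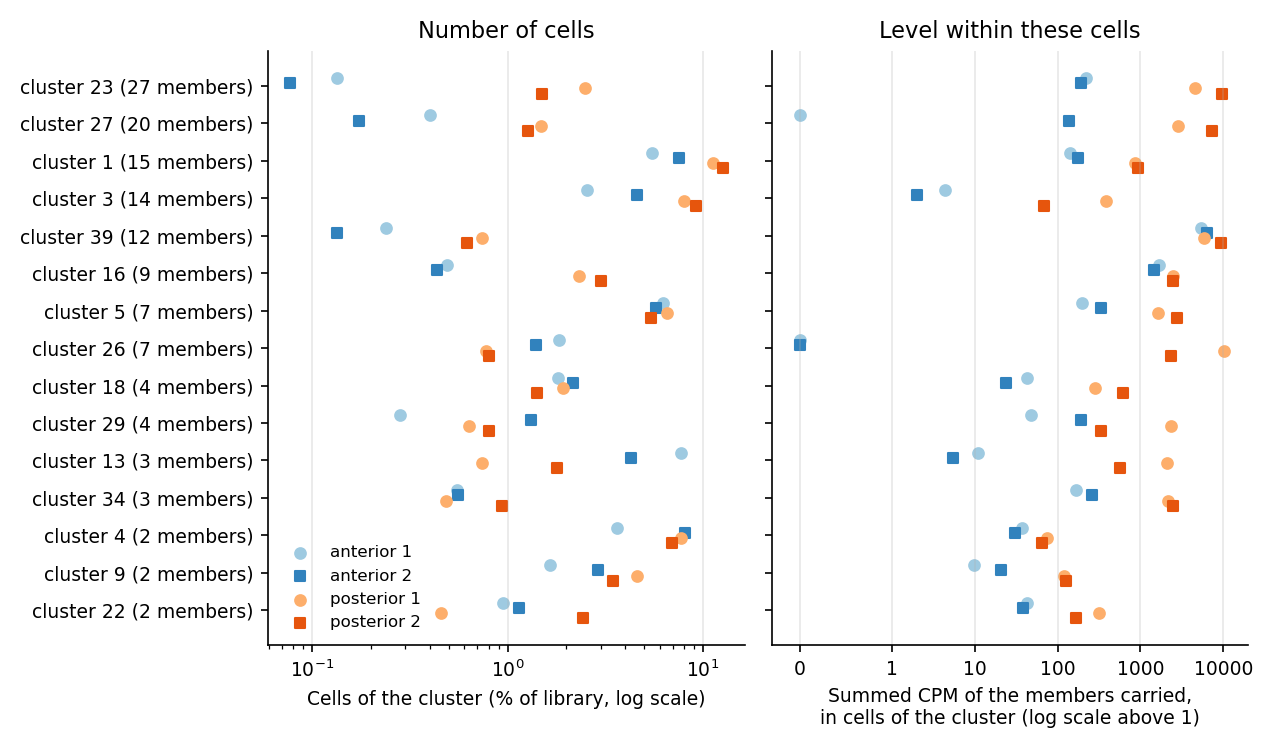
Left, cells of each carrying cluster in percent of the cells of a library (log scale). Right, summed CPM of the members a cluster carries, within its cells (log scale above 1 CPM); points are the 4 libraries, for the 15 clusters with at least 2 members. In cluster 39 the libraries differ on the left and lie close on the right (5384 to 9332 CPM), and in cluster 26 the posterior libraries are lower on the left and the anterior ones at 0 on the right.

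Cluster 5 carried broad members, with none of its 7 at 50% or more of their posterior UMIs there and a median effective number of clusters of 7.77. Of the 15 members of cluster 1, 6 had 50% or more there, with a median effective number of 3.75, but SMESG000022668.1 was found in most clusters. Cluster 1 was the larger, with 370, 779, 1360 and 2411 cells, and SMESG000022668.1 measured 23.3, 24.9, 374 and 405 CPM in it and 3.74, 3.67, 90.9 and 112 CPM in all other cells. In posterior 2, each of the 48 clusters with at least 20 thinned cells had UMIs of it, from 0.907 to 405 CPM, and the share of thinned cells with a UMI ran from 0% to 31.2% over these clusters, with a median of 4.33%. Among clusters with at least 100 thinned cells, the lowest share was in cluster 24, at 0.508% and 1.39% (1 of 197 and 2 of 144 cells), against 32.9% and 31.2% in cluster 1. Free RNA in the suspensions gives UMIs in cells that do not express a gene, and its part in the low shares was not tested. Cluster 5 did not differ in share between regions (5.995% ± 0.338 against 6.01% ± 0.80 of cells), and its 7 members summed to 197, 330, 1611 and 2751 CPM within its cells. SMESG000029156.1, which had the largest effective number of clusters at 16.5 and is named after its values were seen, measured 5.12, 6.76, 54.1 and 82.9 CPM over all cells. SMESG000022667.1, the neighbour of SMESG000022668.1 in the gene list, measured 10.1, 8.55, 206 and 215 CPM in cluster 5 and 0.183, 0.598, 9.49 and 17.0 CPM elsewhere. Within cluster 5 both libraries of a region lay close together, and outside it they lay further apart.

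Cluster 34 had the highest *nrps* (gut) level of the carrying clusters, the related gene with expression in the gut, at 674, 538, 577 and 685 CPM, and carried SMESG000028260.1, SMESG000028261.1 and SMESG000028264.1, which were named after their values were seen. SMESG000028264.1 measured 8.75, 74.0, 903 and 774 CPM within it, and the 3 together 166, 262, 2160 and 2477 CPM, whereas the share of cells overlapped between regions (0.554% ± 0.005 against 0.708% ± 0.319, *n* = 2 libraries each). Without the highest cell of each library SMESG000028260.1 and SMESG000028261.1 no longer met the rule, at ratios of 1.94 and 1.92, and 5 cells held 57.6% of the UMIs of the 3 members in posterior 1. Cluster 13 was rarer in posterior tissue, at 5.98% ± 2.42 against 1.27% ± 0.74 of cells, and its 3 members summed to 10.9, 5.45, 2065 and 565 CPM within it. The 20 leading non-member genes of cluster 13 were kept at a median of 20.6% of the posterior level in its anterior cells, so those cells differed in more than the members. The level also rests on few cells: 8 of 89 and 21 of 342 posterior cells of cluster 13 held any of the 3 members, and the 5 highest cells of a library held 64.5% and 44.4% of their UMIs. SMESG000024498.1, one of the 3, had a ratio of 0.571 once the highest cell of each library was left out. Cluster 3 held shallow cells (medians of 932, 754.5, 1076 and 798 UMIs), and its 14 members, with 68.1 to 389 CPM in sum in its posterior cells, had 2 UMIs in its anterior cells. SMESG000043490.1, the only member of cluster 12, had 34.5% of its posterior UMIs there, but its leading cluster was 3 in posterior 1 and 11 in posterior 2. It had a cell with 690 UMIs, and the 5 highest cells held 58.4% of its UMIs in posterior 1.

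Over all clusters, the difference in CPM between regions was split into a part that comes with the shares of the clusters and a part that comes with levels within clusters, for each member. The cluster composition part had a median of 15.2% (quartiles -1.73% and 29.8%), and it reached 50% or more in 12 members and stayed below 50% in 124. Of the 12, 10 were members of cluster 39 and the others belonged to clusters 16 and 23. SMESG000066854.1 had the largest, at 95.3%. In cluster 26 the part was negative for all 7 members, since posterior tissue had fewer cells of it, with a median of -57.7%. The split counts all cells of a cluster, so a larger number of carrying cells inside a cluster enters it as level. This split was chosen after the data were seen. The median was 5.26% at resolution 0.5, 5.798% with 10 neighbors and 9.13% without posterior 2.

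**Figure D4:**
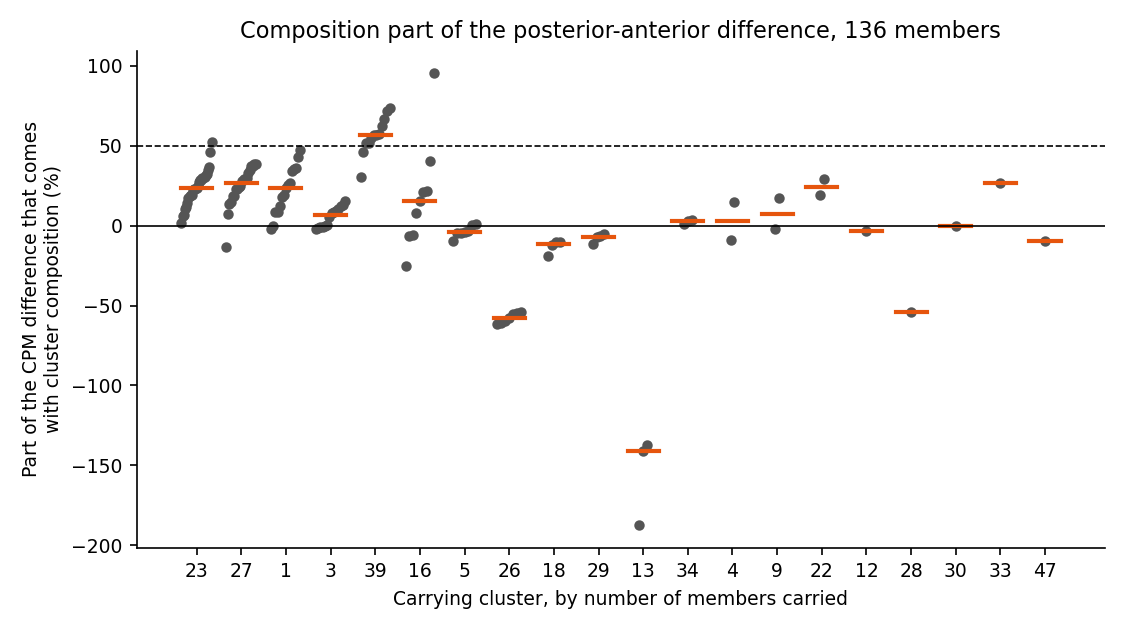
Each point is 1 of the 136 members, placed by its carrying cluster: the part of its posterior-anterior difference in CPM that comes with the shares of the clusters, in percent, with the median of a cluster as an orange line, 50% as a dashed line and 0 as a solid line. Values are below 50% for 124 members, and 10 of the 12 above it belong to cluster 39. For the 71 members without an anterior UMI in their carrying cluster, the part from that cluster cannot exceed 50% of its difference.

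The split was also made for the carrying cluster alone. The log2 ratio of posterior to anterior was split into the share of UMIs of the carrying cluster and the CPM within it. With 3 UMIs set in place of 0 in anterior cells, the share of the cluster gave a median of 44.4% of the ratio over 136 members, and 33.6% over the 65 members with an anterior UMI in the cluster. It was 16.9% at resolution 0.5 and 60.9% at resolution 2. The terms are therefore given by cluster above.

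Cells were also counted without clusters. After thinning to 1000 UMIs, 112 members were detected in both regions, and for them the log2 ratio was split into the share of positive cells and the UMIs per positive cell. The share of positive cells differed by a median of 2.22 on the log2 scale and the UMIs per positive cell by a median of 0.27, so that positive cells gave a median of 90.7% of the ratio. At 1000 UMIs most positive cells hold 1 UMI of a member, which leaves little room for the second term. SMESG000022668.1 had 1.08, 1.06, 1.27 and 1.22 UMIs per positive cell. For SMESG000014171.1 the value was 1 in anterior 2 and 11.4 and 3.10 in the posterior libraries.

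Members of one carrying cluster were detected in the same cells more often than independent detection gives. Over the 902 pairs of members with the same carrying cluster, the number of thinned cells positive for both was 4.61, 4.39, 3.67 and 3.14 times the number expected from the shares of the single members in a library. Over the 8278 pairs with different carrying clusters it was 1.23, 1.57, 1.52 and 1.31 times. Carrying clusters were set by the posterior UMIs, so part of this difference follows from the choice. Within the cells of the carrying cluster the excess was smaller, at 1.64, 1.55, 1.46 and 1.33 times. The anterior ratios rest on 62 and 150 co-detections, the posterior ones on 4021 and 9532.

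The excess within clusters varied between groups. In the posterior cells of cluster 23 the ratio was 1.56 and 1.73, against 10.6 and 11.4 over all cells, and 75.1% and 80.5% of its cells held at least 1 of its 27 members, against 6.63% and 9.41% of the other cells at the same depth. Of the 27 members, 3 or more were held by 22.7% and 42.4% of the cells of cluster 23. In cluster 27 the ratio within was 1.88 and 1.77, and 56.9% and 59.1% of its cells held a member, against 4.02% and 4.30% of the other cells. In cluster 26 the ratio within was 7.54 and 14.3, with 13.3% and 7.02% of its cells positive, so there the members marked a subset of the cluster. In cluster 16 the ratio within was 1.09 and 1.05, which is close to independent detection. Of 366 pairs seen together in at least 20 thinned posterior cells, the 102 pairs with the same carrying cluster had a median ratio of 10.2 and the others of 1.59. These pairs were kept by their joint count, which raises the ratios. Over all pairs, the ratios pooled over the 4 libraries were 3.29 and 1.38. SMESG000003230.1 and SMESG000003218.1, both carried by cluster 23 and named after their values were seen, were together in 39 thinned posterior cells where 0.36 were expected.

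**Figure D5:**
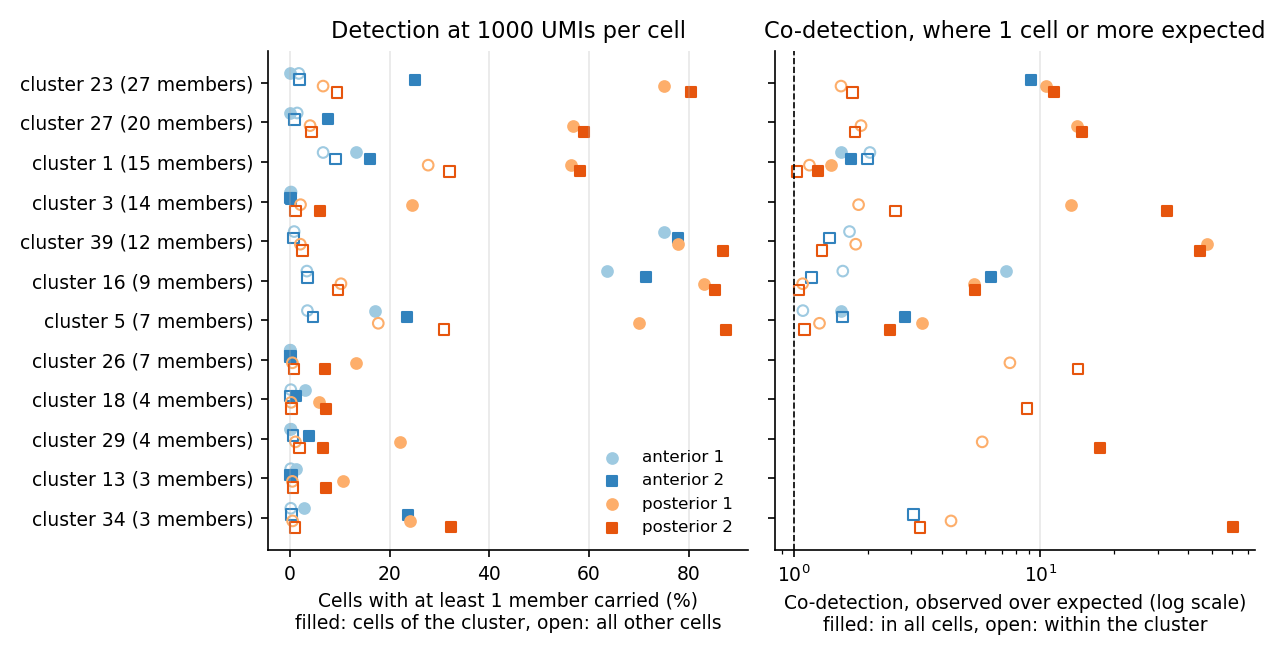
Left, percent of cells thinned to 1000 UMIs that hold at least 1 member carried by the cluster, in the cells of the cluster (filled) and in all other cells (open). Right, co-detection of pairs of these members, observed over expected, in all cells (filled) and within the cluster (open), on a log scale and only where at least 1 cell is expected; points are the 4 libraries. Cluster 23 falls from 10.6 and 11.4 in all posterior cells to 1.56 and 1.73 within the cluster.

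At equal depth 21.0%, 24.0%, 59.1% and 69.0% of cells held at least 1 member, and 0.024%, 0.095%, 4.02% and 6.33% held 5 or more, with at most 7, 8, 19 and 20 in a cell. A cell with 1 UMI need not express the gene, since free RNA also gives UMIs. No cluster could be named as lacking all members, and the cluster with the lowest share, among those of at least 100 thinned cells, still had 8.44%, 7.88%, 23.8% and 29.2% of cells with a member (clusters 7, 7, 25 and 24, with median depths of 2822, 2146, 2842 and 4900 UMIs). Shares near these are not read as expression, and the lowest posterior cluster was itself close to or above the share over all anterior cells. Cluster 16 had the highest posterior shares, at 95.6% and 98.3%. The fewest cells with 50% of all member UMIs were 5.62%, 6.41%, 9.35% and 11.6% of the thinned cells. At their own depth, 83.0% and 87.1% of posterior cells held a member, against 27.9% and 32.4% of anterior cells.

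Whether a member is concentrated in its carrying cluster can be tested in the anterior libraries, which had no part in the choice of the cluster. The UMIs of the cluster and of all other cells were compared with edgeR's quasi-likelihood test, with the library as a block and Benjamini-Hochberg adjustment over all genes tested, in the 3 clusters with most members and at least 20 anterior cells per library. In cluster 1, 9 of its 15 members passed the filter on low counts, and 8 of these were higher in the cluster and 1 lower, beside 20.9% of 15453 genes tested that were higher. A gene with few UMIs elsewhere could pass this filter only by its counts in the cluster, and so only if high there. The 8 of 9 are therefore not read as a result about the members. Without the filter, 6 of the 15 were higher and 1 lower, beside 2795 of 21201 genes that were higher. SMESG000022668.1 was higher in cluster 1 by 3.03 on the log2 scale (standard error 0.40, adjusted *P* = 3.6e-13), in 2 of 2 libraries. SMESG000008973.1 was higher by 0.89 (standard error 0.18, adjusted *P* = 4.3e-06). SMESG000023227.1, by contrast, had a log2 fold change of -0.91 (standard error 0.25, adjusted *P* = 9.6e-04), at 12.3 and 25.5 CPM in the cluster against 38.8 and 53.7 CPM elsewhere in the anterior libraries, although the posterior libraries placed it at 189 and 248 CPM in the cluster against 114 and 174 CPM. The median log2 fold change of all genes was -0.20 in this fit and -0.52 with library sizes alone, and DESeq2 called 4 of the 9 higher.

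In cluster 16, 5 of 9 members passed the filter, and 2 were higher in the cluster, beside 2.11% of 15084 genes. The same limit of the filter holds here, and without it 2 of the 9 were higher, beside 308 of 21201 genes. SMESG000066854.1 was higher by 9.63 (standard error 0.39, adjusted *P* = 2.4e-127) and SMESG000020242.1 by 4.62 (standard error 0.38, adjusted *P* = 1.3e-30), with the median of all genes at -0.90 in this edgeR fit. The other 3 did not pass the threshold, with 0 anterior UMIs of SMESG000002896.1 and SMESG000038967.1 in the cluster. The fold change of SMESG000066854.1 leaves it few UMIs in the other anterior cells. It could pass the filter by its counts in the cluster, so its *P* value is not read as a result about this member. In cluster 3, none of the 14 members had enough anterior UMIs to be tested, while 5.64% of 15887 genes were higher there. These *P* values draw on a spread pooled over genes and 2 libraries, and clusters 23, 27, 39 and 26 were not tested, the first 3 for want of anterior cells.

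Members also lay next to each other in the deposited gene list. Of the 136, 29 (21.3%) were neighbours of another member, whereas 1.15% of all genes with at least 100 UMIs were next to a member. They formed 16 pairs, and in 12 of them both genes had the same carrying cluster. SMESG000028261.1 and SMESG000028260.1 of cluster 34 were together in 50 thinned posterior cells where 0.70 were expected. Genome positions and sequences were not used here, so whether reads of such neighbours could be shared between similar copies was not tested.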

How the data were processed

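For every library the authors deposited a matrix of UMI counts (genes by cells). The headers of the files name Cell Ranger 5.0.0, with which reads were aligned to the genome of the sexual strain, barcodes filtered and UMIs counted. The counts are neither normalized nor pooled, and the study's later aggregation to a common depth was not used here. Region and number of a library came from the sample labels. All cells were used, with 500 UMIs or more each, at depths of 11513838 to 72094246 UMIs per library.

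Cells were scaled to 10000 UMIs, log-transformed and clustered on 3000 variable genes, 50 principal components, 20 exact neighbors with shared-neighbor weights and Leiden resolution 1 (scanpy 1.11.5, leidenalg 0.10.2, igraph 0.11.9, scikit-learn 1.9.0, Python 3.11.15). Scrublet marked 0, 0, 0 and 200 cells (0.415%), under the share at which its calls were taken to work, and no cell was removed. Thinning to 1000 UMIs left out 2577, 4088, 1614 and 4147 shallower cells. Sums per library were tested with edgeR 4.0.16 (quasi-likelihood, TMM, filterByExpr, R 4.3.3), tested on simulated data first, with DESeq2 1.42.0 as an alternative. Shares of cells were compared by exact permutation with scipy 1.17.1. The split of the CPM difference over all clusters took the mean of both regions as weights.

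Members, tests and lists were chosen with earlier results of these data known. Members named in the text were the 5 with most UMIs, the 5 with the largest ratio among those with an anterior UMI, the 2 with most posterior UMIs in each of the 3 clusters that carried most members, and the 3 nearest to the threshold on either side, besides the 4 genes the paper gives by number. Other names were chosen after their values were seen. Alternatives were other minima, ratios, scalings, depths, clusterings, tools and filters, doublet scores removed and each library left out. Gene names and sequences were not used here.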

Additional observations from a re-analysis of the deposited data

How the results depend on the processing

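The rule gave 81 members with a minimum of 300 UMIs, 84 with a ratio of 3, 252 with a ratio of 1.5 and between 121 and 332 with each library left out in turn, of which 87 to 136 were among the 136. Thinning to 1000 UMIs gave 198, with 121 of the 136 among them, and equal weights for cells gave 173, with 126. Leaving out the highest cell of each library for each gene, chosen after the data were seen, gave 159. Genes called higher and lower between regions, 8 and 23, were 127 and 435 with DESeq2, 5 and 4 with library sizes only, 28 and 45 without a filter, 27 and 32 after thinning, and 0 to 176 and 0 to 495 with each library left out. With the replicate number as a block (replicate block) they were 34 and 50, but same-numbered libraries share only a number. Their deviations from the region means correlated at 0.16. With 2 libraries per region both pairs give this same value by construction, so it cannot show a pairing. The share of the log2 ratio that comes with the carrying cluster was 16.9% at resolution 0.5, 60.9% at resolution 2, 60.7% with all genes in the clustering, 24.6% with 10 neighbors, 55.1% after thinning and 37.5% to 57.8% with each library left out. The composition part of the CPM difference was 5.26% at resolution 0.5, 5.798% with 10 neighbors and 9.13% to 15.96% with each library left out. The positive-cell part was 87.5% at 2000 UMIs, 96.5% from 2 UMIs and 88.7% to 92.4% with each library left out. Counting cells as positive from 2 UMIs gave co-detection of 12.1 for pairs of the same carrying cluster and 1.86 for the others, against 3.29 and 1.38. In the anterior test, DESeq2 called 4 members of cluster 1, all 4 libraries together called 7 of cluster 16, and the 3 clusters chosen at resolution 2 held 4 called members against 10. The causes of these shifts were not tested. In their carrying cluster, 71 of the 136 had no anterior UMI, and 3 UMIs there would be 154 CPM in cluster 23, 47.6 CPM in cluster 27 and 8.49 CPM in cluster 26.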
